A study of Mus musculus with 4 samples.

Results

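The genes described here are 10 genes of the insulin-like growth factor (IGF) system in the embryonic cochlear duct, the ligands *Igf1* and *Igf2*, the receptors *Igf1r* and *Igf2r*, the non-coding RNA *H19* and the binding protein genes *Igfbp2*, *Igfbp3*, *Igfbp4*, *Igfbp5* and *Igfbp7*. They were found by gene symbol among the 29924 gene names on the array, and their 17 probes were all bright enough to be tested, so that 10 of 10 entered the test of 21042 genes. Cochlear ducts of mouse embryos on the NMRI background were compared at embryonic day E14.5 between *Sox2-Tbx2LOF* mutants and controls, to find transcripts that depend on the T-box transcription factor gene *Tbx2* in prosensory cells. The mutants, labelled Sox2(creERT2);Tbx2(fl/fl), carry a Cre recombinase driven from *Sox2* that needs tamoxifen, a *Tbx2* gene flanked by *loxP* sites on both chromosomes and, by the methods, a membrane reporter at the *Rosa26* locus. The controls are labelled Tbx2(fl/n.d.), which gives 1 *loxP*-flanked allele and a second allele that was not determined. The methods call them cre-negative, so that Cre itself and the allele at *Sox2* differ between the groups as well. By the crosses in the methods, cre-negative littermates of the mutants would carry the reporter too, and *loxP* sites on both chromosomes. Dams of both groups received 4 mg of tamoxifen by mouth in a single pulse at E12.5. Each of the 4 arrays set 1 pool of mutant ducts against 1 pool of control ducts, females on arrays 1 and 2 and males on arrays 3 and 4, with the mutant in the red dye Cy5 on arrays 1 and 3 and in the green dye Cy3 on arrays 2 and 4. *Sox2* is active in only some cells of the duct, whereas the pools held whole ducts from which the spiral ganglion had been removed. In such bulk samples, fewer cells of a type and less RNA per cell cannot be told apart.

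IGF-I and IGF-II are small secreted proteins related to insulin that drive growth and survival of many embryonic tissues through the type 1 receptor, a tyrosine kinase encoded by *Igf1r*. The receptor encoded by *Igf2r* binds IGF-II and carries it to lysosomes, where it is degraded. The binding proteins hold IGFs in the tissue fluid and matrix, and proteases release them by cutting the binding proteins. *Igf2* is expressed from the paternal and its neighbour *H19* from the maternal chromosome in most embryonic tissues. IGF-I is known to be needed for normal development of the inner ear in mice and humans.

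Mutant and control pools differed in 2 of the 10 genes. *Igfbp5* was 1.32-fold higher in the mutants and *Igfbp3* was 1.25-fold lower, whereas the ligands, the receptors, *H19* and the other 3 binding protein genes did not pass the test. A gene passed where limma's moderated test on the log2 ratios of mutant over control gave a Benjamini-Hochberg adjusted p below 0.05 over all 21042 genes, and it was called where the fold was also at least 1.5. Of the 10 genes, 1 passed as higher, against 2.26% of all genes tested, and 1 passed as lower, against 2.92%. None of the 10 was called, against 0.442% of all genes. The median log2 ratio of the 10 genes was 0.03, and that of all genes tested was 0.00. The median size of the log2 ratio was 0.06 over the 10 genes and 0.04 over all genes.

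**Figure D1:**
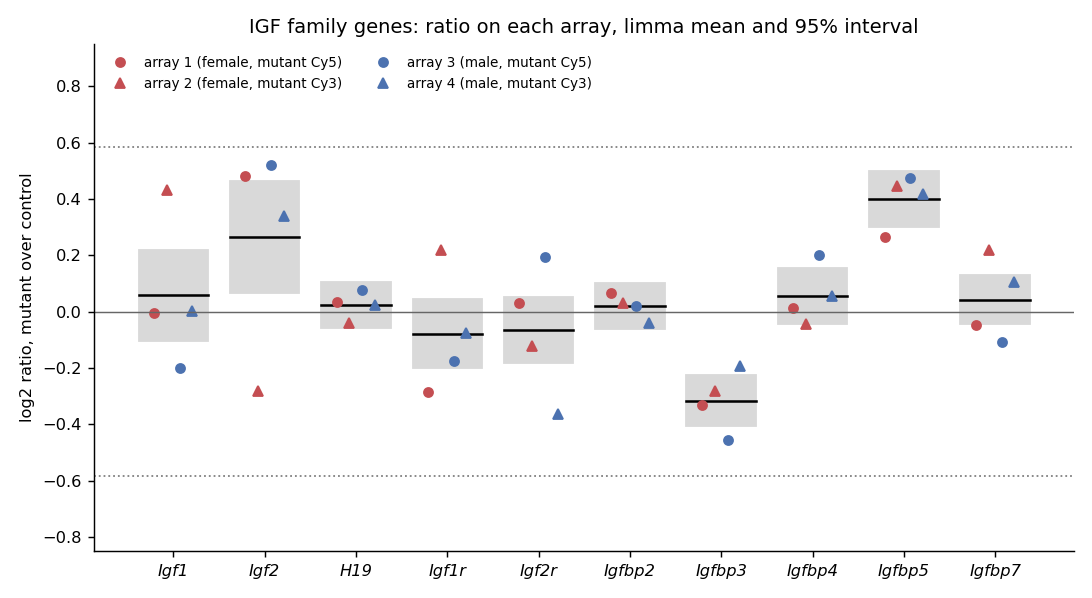
The log2 ratio of mutant over control (vertical axis) is plotted for 10 IGF family genes, with 1 point per array, the limma mean as a black line, its 95% confidence interval as a grey box, and dotted lines at a 1.5-fold change. All 4 points of *Igfbp5* lie above 0 and all 4 of *Igfbp3* below 0, while array 2 lies apart from the other arrays for *Igf1* and *Igf2*.

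The DNA just before the start sites of *Igfbp5* and *Igfbp3* is shown because these are the genes that passed the test. RefSeq start-site windows (GRCm38.p6, 250 bases before to 50 bases after the start) were found for 9 of the 10 genes, in 13 windows. The 250 bases before the start are printed 5′ to 3′ on the minus strand, from which both genes are read, with CpG dinucleotides in capitals.
*Igfbp5*, chr1:72874866-72875115: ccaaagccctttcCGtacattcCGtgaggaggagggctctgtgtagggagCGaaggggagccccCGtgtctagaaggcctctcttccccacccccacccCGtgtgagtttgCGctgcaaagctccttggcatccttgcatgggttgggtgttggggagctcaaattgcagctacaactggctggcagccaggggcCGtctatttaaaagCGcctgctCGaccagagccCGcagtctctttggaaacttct
*Igfbp3*, chr11:7213924-7214173: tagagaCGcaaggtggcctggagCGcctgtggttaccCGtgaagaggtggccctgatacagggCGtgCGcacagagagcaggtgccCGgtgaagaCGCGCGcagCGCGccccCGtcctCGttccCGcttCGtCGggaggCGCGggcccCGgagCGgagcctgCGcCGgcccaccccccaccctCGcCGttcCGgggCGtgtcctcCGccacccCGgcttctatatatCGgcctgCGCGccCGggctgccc
The stretch before *Igfbp5* holds 10 CpG dinucleotides and that before *Igfbp3* holds 32. The median over all 32851 windows was 6, and 95.4% of windows held fewer than that of *Igfbp3* and 62.2% fewer than that of *Igfbp5*. TBX2 binds T-box elements, whose core was searched as GGTGTGA on both strands of the whole windows. It was found in 3.98% of all windows and in 0 of the 13 windows of these genes. The shorter GGTGTG, which lies within it, was found in 19% of all windows and in 1 of the 13, that of *Igfbp4*. The TATA box letters TATAAA occurred in 13.6% of all windows and also in that of *Igfbp4*, and the E-box CACGTG occurred in 7.15% of all windows and in 1 window each of *Igf2r* and *Igfbp2*. These matches describe the letters of the windows, and no binding was measured.

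*H19* and *Igfbp2* were each measured by a pair of probes. Both probes of *H19* and the one of *Igfbp2* that reaches the end of its coding sequence are shown, because they were read for the 2 genes whose levels differed least between the groups. Positions are those of mm9, the build of the deposited files. The *H19* probes A_55_P1961127, at chr7:149761492-149761551, and A_55_P1961125, at chr7:149762417-149762476, match the minus strand, and the *Igfbp2* probe A_55_P2056729, at chr1:72898677-72898736, matches the plus strand and ends with a stop codon, in capitals.
*H19*, A_55_P1961127: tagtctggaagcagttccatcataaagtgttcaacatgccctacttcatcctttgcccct
*H19*, A_55_P1961125: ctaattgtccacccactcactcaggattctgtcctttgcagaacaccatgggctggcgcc
*Igfbp2*, A_55_P2056729: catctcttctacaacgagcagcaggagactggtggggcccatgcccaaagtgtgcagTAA

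Tissue and labels were checked with genes outside the group. Of the listed markers, 12 of 12 of otic epithelium and 15 of 15 of mesenchyme were well above background in every pool, and so were 10 of 10 endothelial, 9 of 9 macrophage and 9 of 9 neuronal markers tested. *Tbx2* itself had log2 ratios of -0.25, -0.05, -0.13 and -0.03 on arrays 1 to 4, lower in the mutant on 4 of 4 arrays, and did not pass the test (adjusted p = 0.124). Of the 4 probes of *Esr1*, the oestrogen receptor gene of which a part is fused to Cre, 1 was well above background in 4 of 4 mutant pools and in 0 of 4 control pools, and the others in no pool. Over the 4 arrays, median spot signals were 263 to 292 in Cy3 and 496 to 563 in Cy5, over median backgrounds of 25 and of 85 to 95, and no gene spot was saturated. The arrays carry no count of molecules, so that their number limits the precision.

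*Igfbp5* encodes a binding protein that can attach to the extracellular matrix. Its single probe (A_52_P281702, chr1:72904829-72904888, mm9) gave normalized log2 signals of 16.02, 16.34, 16.22 and 16.25 in the mutant pools of arrays 1 to 4 and of 15.76, 15.89, 15.75 and 15.83 in the control pools. The lowest mutant pool lay above the highest control pool, so the groups did not overlap. The log2 ratios within the arrays were 0.27, 0.44, 0.47 and 0.42. Their mean was 0.40 ± 0.09 (SD, n = 4 arrays), with a limma standard error of 0.04, a 95% confidence interval of 0.30 to 0.50 and an adjusted p of 0.00189. This amounts to a 1.32-fold higher level (1.23 to 1.41). The size of the ratio was larger than that of 99.0% of the genes tested.

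*Igfbp3* encodes the main IGF carrier of adult serum, which also occurs in tissues. Its brighter probe (A_52_P253179, chr11:7106594-7106653) gave log2 signals of 11.81, 11.90, 11.83 and 12.15 in the mutant pools and of 12.14, 12.18, 12.29 and 12.34 in the control pools. The mutant pool was lower than its control pool on each array, although the mutant pool of array 4 lay just above the control pool of array 1. The log2 ratios were -0.33, -0.28, -0.46 and -0.19, with a mean of -0.32 ± 0.11 (SD, n = 4 arrays), a limma standard error of 0.04, a 95% confidence interval of -0.41 to -0.23 and an adjusted p of 0.00395. The level was thus 1.25-fold lower (1.17 to 1.33). A second, dimmer probe (A_55_P1992715, chr11:7107949-7108008) gave -0.17, -0.12, -0.18 and -0.26, again below 0 on 4 of 4 arrays. With the channels fitted separately and the pairing of pools on an array left out, *Igfbp3* did not pass (adjusted p = 0.172).

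Markers of the cells in the pools were measured beside these 2 genes, each list by its counts, its median log2 ratio and its summed log2 signal. Of the 12 otic epithelium markers, 2 passed as higher and 4 as lower, with a median of 0.03 and summed signals of 18.77 to 18.81 in the mutant and 18.53 to 18.62 in the control pools. Of the 15 mesenchyme markers, 1 passed as higher and 1 as lower, with a median of 0.08 and summed signals of 18.50 to 18.58 and of 18.39 to 18.47. The summed signals of both these lists did not overlap between mutant and control pools. Of the 9 neuronal markers tested, 2 passed as higher and 6 as lower, with a median of -0.39. Within arrays 1 to 4 their median was -0.46, -0.38, -0.38 and -0.42. Their summed signals, 15.66 to 15.83 in the mutant and 15.69 to 15.75 in the control pools, overlapped. Of the 10 endothelial markers 2 passed as higher, of the 10 Schwann cell and melanocyte precursor markers 1 passed as higher and 2 as lower, and 0 of 9 macrophage and 0 of 7 blood markers passed. The part of these cells in the *Igfbp5* and *Igfbp3* ratios was not tested.

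**Figure D2:**
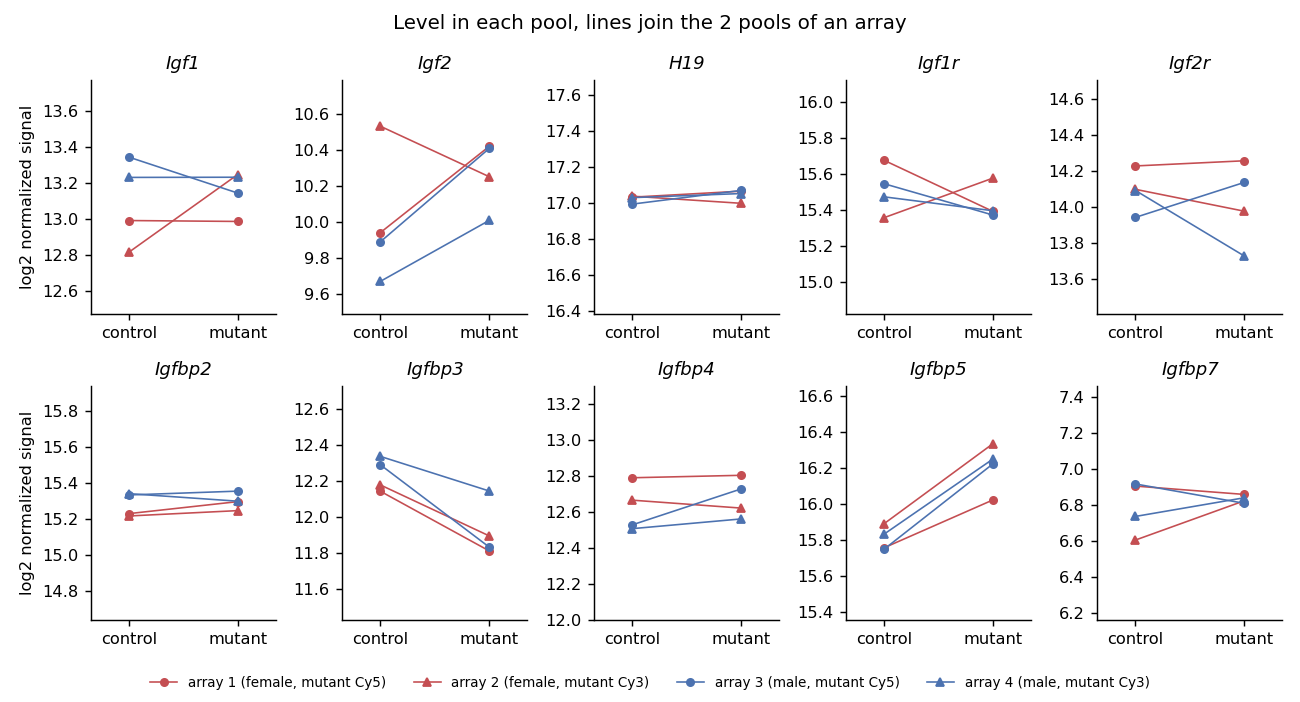
The normalized log2 signal (vertical axis, every panel spanning the same range) is plotted for the control and the mutant pool of each array, joined by a line, with females in red, males in blue, circles where the mutant was Cy5 and triangles where it was Cy3. All 4 lines rise for *Igfbp5* and fall for *Igfbp3*, and the lines of *Igf1*, *Igf1r* and *Igf2* run both ways.

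The other 3 binding protein genes did not pass the test. *Igfbp2*, which codes for an abundant fetal binding protein, had log2 signals of 15.25 to 15.35 in the mutant and of 15.22 to 15.34 in the control pools. Its log2 ratios were 0.07, 0.03, 0.02 and -0.04 (mean 0.02, 95% confidence interval -0.06 to 0.10, adjusted p = 0.820), and the probe printed above gave -0.08, 0.08, 0.06 and 0.08. *Igfbp2* and *Igfbp5* are neighbours on chromosome 1, with 5956 bases between their nearest probes. The interval of *Igfbp2* lay below that of *Igfbp5*, and the difference between the genes was not tested. Likewise *Igfbp1*, whose probe lies 4092 bases from a probe of *Igfbp3* on chromosome 11, had a log2 ratio of 0.04 (-0.05 to 0.12, adjusted p = 0.628).

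*Igfbp4*, whose product mostly restrains IGF action, had log2 ratios of 0.01, -0.04, 0.20 and 0.05, with a mean of 0.06 (-0.04 to 0.16, adjusted p = 0.533). Its mutant pools had log2 signals of 12.56 to 12.80 and its control pools of 12.51 to 12.79, so that the groups overlapped over nearly their whole range. *Igfbp7* encodes a relative of the binding proteins with low affinity for IGFs, found around blood vessels. Its probe was dim and stood well above background in 4 mutant pools but in 2 control pools. The log2 ratios were -0.05, 0.22, -0.11 and 0.10, below 0 where the mutant was in Cy5 and above 0 where it was in Cy3. Their mean was 0.04 (-0.04 to 0.13, adjusted p = 0.596). From Agilent's processed signals the mean of *Igfbp7* was 0.20 with a standard error of 0.10 (adjusted p = 0.365), and with median centring it was 0.10. No close limit can thus be set on the change of *Igfbp7* from this dim probe. Limma's intervals borrow the spread of all genes and take out the dye effect, so that single arrays can lie outside them.

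The ligand genes varied most between arrays. *Igf2* had log2 signals of 10.42, 10.25, 10.41 and 10.01 in the mutant pools and of 9.94, 10.53, 9.89 and 9.67 in the control pools. The mutant was higher on arrays 1, 3 and 4, with log2 ratios of 0.48, 0.52 and 0.34, and lower on array 2, with -0.28. The mean was 0.26 ± 0.37 (SD, n = 4 arrays), the limma interval 0.06 to 0.46 and the adjusted p 0.137, so that *Igf2* did not pass. The spread of its 4 ratios was wider than this interval, which rests in part on the spread of other genes. When an array was left out, the fit gave both dye orientations equal weight, so its log2 ratio was not the plain mean of the arrays kept. Without array 2 the fitted log2 ratio was 0.42 with an adjusted p of 0.000677, and the number of genes of the group that passed was 3 in place of 2. Array 4 was then the only array with the mutant in Cy3. Without array 4 the fitted log2 ratio was 0.11 with an adjusted p of 0.381, and array 2 was then the only array with the mutant in Cy3. The fitted *Igf2* ratio thus depended on which arrays were kept. The control pool of array 2 had the highest *Igf2* signal of the 8 pools.

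*Igf1* was measured with 5 probes. The brightest (A_55_P2085974, chr10:87399581-87399640) gave log2 signals of 12.99, 13.25, 13.15 and 13.23 in the mutant pools and of 12.99, 12.82, 13.35 and 13.23 in the control pools. Its log2 ratios were -0.00, 0.43, -0.20 and 0.00, with a mean of 0.06 (-0.10 to 0.22, adjusted p = 0.708). On array 2 the other 4 probes gave 0.50, 0.46, 0.24 and 0.43, so that *Igf1* was higher in the mutant pool of that array by every probe. On arrays 1, 3 and 4 the 5 probes lay between -0.20 and 0.14. The files assign 4 of the probes to one transcript and the probe with 0.24 to another of the gene, and 2 of the probes share 40 bases, so that they are repeated readings of the same pools and not replicates. Without array 2 the log2 ratio that limma fitted with the dye term for the brightest probe turned to -0.05 (adjusted p = 0.729).

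**Figure D3:**
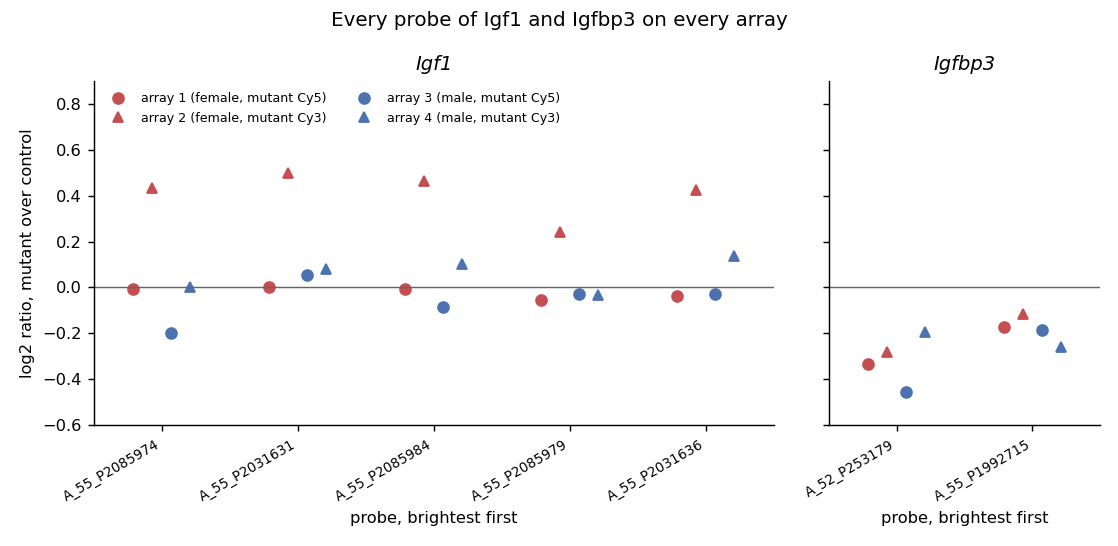
The log2 ratio of mutant over control (vertical axis) is plotted for each of the 5 *Igf1* probes and the 2 *Igfbp3* probes, ordered from bright to dim, with 1 point per array coloured by sex and shaped by dye. Array 2 gives the highest point for each *Igf1* probe, and all 8 points of *Igfbp3* lie below 0.

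The 2 pools of array 2 were also compared by marker lists. The median log2 ratio of the mesenchyme markers was 0.10, 0.08, 0.03 and 0.07 on arrays 1 to 4, so that array 2 lay within the others. That of the macrophage markers was 0.07, 0.10, 0.06 and 0.01, highest on array 2. That of the blood markers was 0.25, -0.08, 0.32 and -0.02, below 0 on array 2 and also on array 4, the arrays on which the mutant was labelled with Cy3. The SD of the log2 ratio over all genes was 0.147 on array 2 and lay between 0.165 and 0.181 on the others. What sets the *Igf1* and *Igf2* values of array 2 apart was not tested.

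*H19*, the maternally expressed neighbour of *Igf2*, lay 78109 bases from the *Igf2* probe on chromosome 7. Its brighter probe had log2 signals of 17.06, 17.00, 17.07 and 17.05 in the mutant and 17.03, 17.04, 16.99 and 17.03 in the control pools, with groups that overlapped in a narrow range. The log2 ratios were 0.03, -0.04, 0.08 and 0.02, with a mean of 0.02 ± 0.05 (SD, n = 4 arrays; 95% confidence interval -0.06 to 0.10, adjusted p = 0.771). The dimmer probe gave 0.03, -0.03, 0.08 and -0.15. The spread of the brighter *H19* probe over the arrays was thus far narrower than that of the *Igf2* probe (SD 0.05 against 0.37). The SD of the dimmer *H19* probe was 0.10. The brighter *H19* probe and the *Igf2* probe differ in brightness, with mean mutant log2 signals of 17.05 and 10.27. Whether brightness bears on these spreads was not tested. On array 2, where *Igf2* was lower in the mutant, the brighter *H19* probe differed by -0.04.

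The receptor genes did not pass the test. *Igf1r* had log2 signals of 15.39, 15.58, 15.37 and 15.40 in the mutant pools and of 15.68, 15.36, 15.55 and 15.47 in the control pools. Its log2 ratios were -0.28, 0.22, -0.17 and -0.08, with a mean of -0.08 (-0.20 to 0.04, adjusted p = 0.462), and array 2 was again the one that ran opposite to the other 3. *Igf2r* had log2 ratios of 0.03, -0.12, 0.19 and -0.36, with a mean of -0.07 (-0.18 to 0.05, adjusted p = 0.532). These ratios were above 0 on the arrays with the mutant in Cy5 and below 0 on those with the mutant in Cy3. The mutant pools, at 13.73 to 14.26, spanned the control pools, at 13.94 to 14.23. The files give this probe of 60 bases an interval of only 11 bases (chr17:12875253-12875263), so that its full position is uncertain.

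**Figure D4:**
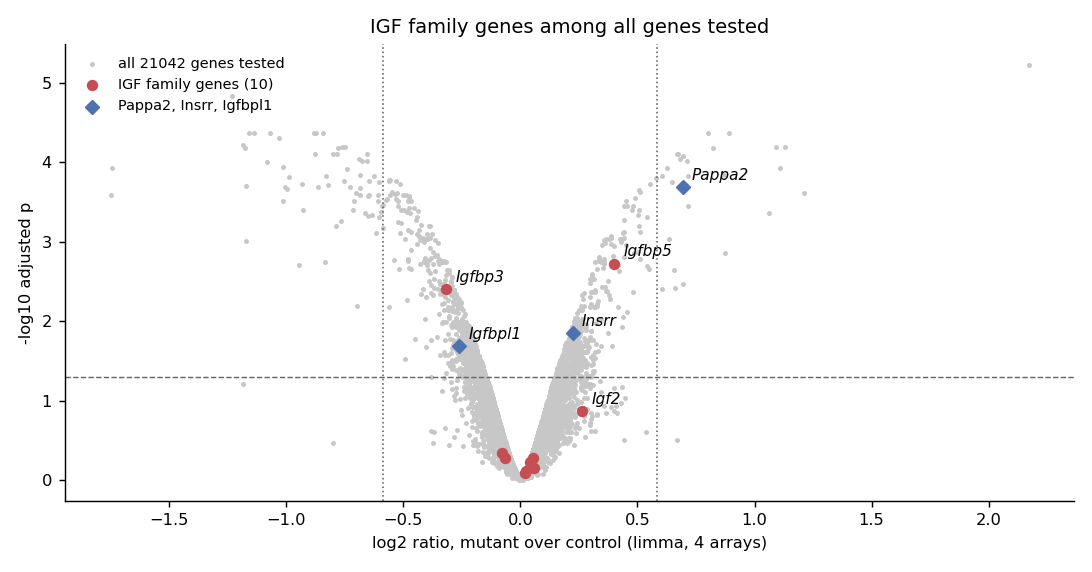
Each gene tested is plotted by its mean log2 ratio of mutant over control (horizontal axis) and by the negative log10 of its adjusted p (vertical axis), with 10 IGF family genes in red and *Pappa2*, *Insrr* and *Igfbpl1* as blue diamonds. The dashed line marks an adjusted p of 0.05 and the dotted lines a 1.5-fold change; *Igfbp5* and *Igfbp3* pass the first, and *Pappa2* passes both.

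Genes that act on the binding proteins were examined as a list of 8 proteases and inhibitors. Of these, 1 passed as higher and 0 as lower, and the median log2 ratio was -0.03. The gene that passed was *Pappa2*, which encodes a secreted metalloprotease known to cut IGFBP-3 and IGFBP-5. Its log2 signals were 12.93, 12.88, 12.95 and 12.87 in the mutant pools and 12.22, 12.12, 12.17 and 12.35 in the control pools, which did not overlap. The log2 ratios were 0.71, 0.76, 0.78 and 0.52, with a mean of 0.69 (0.59 to 0.80) and an adjusted p of 0.000206. At 1.62-fold higher it was a called gene. Its other 2 probes, at other positions of the gene, were not well above background in any pool. *Pappa*, the related protease gene whose product cuts IGFBP-4, had a log2 ratio of 0.04 (adjusted p = 0.609), and its inhibitors *Stc1* and *Stc2* had -0.08 (adjusted p = 0.581) and -0.02 (adjusted p = 0.866).

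Of the 9 other genes of the insulin and IGF family that were tested, 1 passed as higher and 1 as lower. *Insrr*, which encodes a receptor related to the insulin receptor that responds to alkaline pH, had log2 ratios of 0.36, 0.05, 0.34 and 0.15 and a mean of 0.22 (adjusted p = 0.0140). The 2 arrays with the mutant in Cy5 gave the larger values, and without the dye term *Insrr* did not pass (adjusted p = 0.251). *Igfbpl1*, a gene related to the binding proteins, had log2 ratios of -0.48, -0.05, -0.29 and -0.22 with a mean of -0.26 (adjusted p = 0.0208). It was well above background in 2 mutant and 4 control pools, and it did not pass without the dye term (adjusted p = 0.223) or with median centring (adjusted p = 0.0784). Its size depended on the background correction, with -0.67 from Agilent's processed signals, -0.68 from the deposited value table and -0.40 with a normexp offset of 10. Without array 1, 3 or 4 neither gene passed, with adjusted p between 0.054 and 0.116.

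Of 31 tested genes that act downstream of the IGF and insulin receptors, from the adaptors to AKT, mTOR and FOXO, 0 passed the test. Their median log2 ratio was 0.00 and 96.8% of them lay within 0.2 of 0, against 95.1% of all genes. The largest ratio was that of *Irs2*, which encodes an adaptor that the receptors phosphorylate, at 0.17, -0.09, 0.28 and 0.59 on the arrays (mean 0.24, adjusted p = 0.209).

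*Igf2*, *H19* and *Igf2r* are imprinted, and 30 other genes from a list of imprinted genes were examined beside them. Imprinting can differ between tissues and was not measured in the duct. Of these, 3 passed as higher and 1 as lower, with a median log2 ratio of 0.04. *Slc22a3*, an organic cation transporter gene of the *Igf2r* cluster on chromosome 17, had log2 ratios of -0.38, -0.37, -0.54 and -0.43 (mean -0.43, adjusted p = 0.000958), and its mutant and control pools did not overlap. Its mean was -0.81 from Agilent's processed signals and -0.77 from the deposited value table, both past 1.5-fold, and -0.58 with a normexp offset of 10. *Airn*, the non-coding RNA of that cluster, and its neighbour *Slc22a2* had 0.09 (adjusted p = 0.301) and -0.01 (adjusted p = 0.929). *Rasgrf1*, a nucleotide exchange factor gene of chromosome 9, had a mean of 0.32 (adjusted p = 0.00181) and a second probe at 0.36, and did not pass without the dye term (adjusted p = 0.0575). *Magel2* had 0.19 (adjusted p = 0.0277) and *Kcnq1ot1*, a non-coding RNA of chromosome 7 like *H19*, had 0.16 (adjusted p = 0.0485). Neither of the last 2 passed when any 1 of the 4 arrays was left out, with adjusted p between 0.0541 and 0.216.

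The pools were sorted by sex, which allows the effect to be compared between females and males. Of all genes, 0 (0%) passed the test for a difference of the genotype effect between the sexes in limma, while 558 had an unadjusted p below 0.05, and among the 10 genes of the group these were *Igf1* and *Igf2*. The *Igf1* ratio was higher in females by 0.31 (adjusted p = 1.00), with means of 0.21 on the 2 female and -0.10 on the 2 male arrays. The *Igf2* ratio was lower in females by 0.33 (adjusted p = 1.00), with means of 0.10 and 0.43. The 2 female arrays disagreed, since array 1 gave ratios of -0.00 for *Igf1* and 0.48 for *Igf2* and array 2 gave 0.43 and -0.28. *Igfbp5*, with 0.36 in females and 0.45 in males, and *Igfbp3*, with -0.31 and -0.32, had the same sign in both sexes.

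The level of a gene over both pools of an array was also compared between female and male arrays. Of all genes, 0.038% passed, 8 genes among which were *Xist* and the Y-linked *Ddx3y*, *Uty* and *Eif2s3y*, in the directions of the labelled sexes. Of the 10 genes of the group, 0 passed in limma and 1 had an unadjusted p below 0.05, as did 659 of all genes. This was *Igf1*, lower in females by 0.23 on the log2 scale (adjusted p = 1.00).

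**Figure D5:**
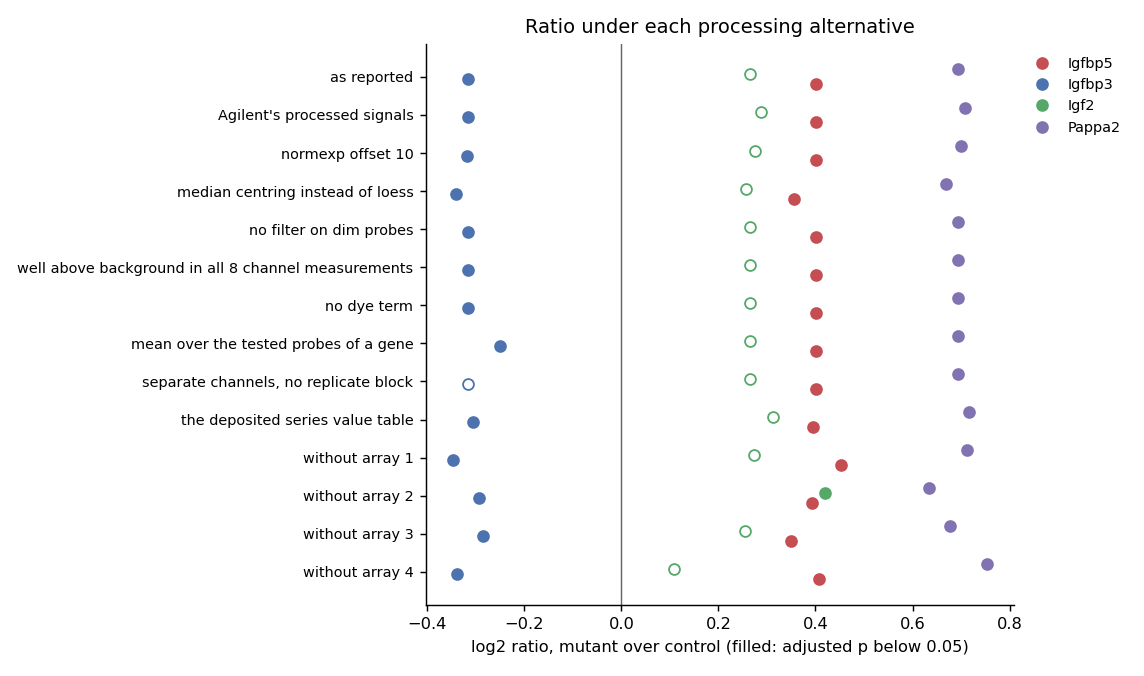
The fitted log2 ratio of mutant over control (horizontal axis) of *Igfbp5*, *Igfbp3*, *Igf2* and *Pappa2* is plotted as reported and under each of 13 alternative ways to process the arrays (vertical axis), filled where the adjusted p was below 0.05. *Igfbp5* and *Pappa2* are filled in every line, *Igfbp3* in every line but that of separate channels without the replicate block, and *Igf2* only without array 2.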

How the data were processed

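The 4 arrays hold 8 pools, and the groups, sexes and dyes came from the labels. The authors deposited Agilent Feature Extraction (10.7.3.1) files whose intensity values are the spot means, the local background medians and Agilent's processed signals, on 1 slide and 1 scan. The authors also deposited a log10 ratio, which was not used, and a series value table whose score is a signed fold change. Its columns have a median of 1, and after conversion to log2 they correlated with the ratios computed here at r = 0.916 to 0.943 over 21042 probes, in the direction of mutant over control. How these scores were normalized is not given in the sources used here.

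Spots were corrected with normexp (offset 50) and loess within each array, without control and flagged spots (8.29 to 8.56%), and averaged per probe. Probes were tested where at least 4 of 8 channel measurements were well above background, and the brightest tested probe stood for a gene. The direction of genotype and a dye intercept were fitted with limma 3.58.1 in R 4.3.3, with 2 residual and 5.65 prior degrees of freedom, and p values were adjusted by Benjamini-Hochberg over all genes. The sex difference of the ratios and of the levels was fitted in the same way. The code was tested on simulated data. Pools on an array are paired by the hybridisation. The p values of the genotype ratios rest on the spread of the ratios between arrays after the dye term, combined with the spread of all genes.

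Genes named beyond the 10 were *Tbx2*, *Esr1* and, from 4 lists (other IGF family genes, proteases and inhibitors, receptor signalling, imprinted genes), all that passed and the largest ratio of each. *Airn*, *Slc22a2*, *Pappa*, *Stc1*, *Stc2* and *Igfbp1* were added after their values were seen, and *Xist*, *Ddx3y*, *Uty* and *Eif2s3y* served as a check of the sexes. *Igfals* and *Foxo4* were too dim to be tested and *Insl3* was not found by its symbol. The members and lists were chosen with earlier results of these data known. Reference windows are RefSeq's (GRCm38.p6), and probe positions are those of the files (mm9).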

Additional observations from a re-analysis of the deposited data

Results flagged for a closer look

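Of 30 sets of 4 values (the ratios, the mutant levels and the control levels of the 10 genes), 1 held a value far from the other 3. The log2 signal of *Igf1r* in the mutant pool of array 2 was 15.58, and the other mutant pools lay between 15.37 and 15.40. Chance alone flags about 1 in 20 such sets.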

How the results depend on the processing

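The ratio of *Igfbp5* kept its direction and passed the test under 13 of 13 alternatives, between 0.35 and 0.45 (adjusted p 0.000381 to 0.0425), and that of *Igfbp3* did so under 12 of 13, between -0.35 and -0.25, close to the threshold without the dye term (adjusted p = 0.0499). The changed filters on dim probes, the fit without the dye term and that of separate channels left both ratios the same. These alternatives bear only on the p values of *Igfbp5* and *Igfbp3* and not on their direction. In the unpaired fit of separate channels, 1 gene of the group passed in place of 2, *Igfbp3* being lost, whereas with the array as a replicate block 2 passed, in a fit that is the same as that of the ratios and is not counted among the 13. Leaving out 1 array at a time gave 2 to 3 genes that passed, the third being *Igf2* without array 2. Signs turned for 3 genes that never passed, *H19* (-0.019) and *Igfbp2* (-0.014) with median centring, and *Igf1*, which ranged from -0.051 without array 2 to 0.16 without array 4 and was -0.10 on the 2 male arrays alone, a split chosen after the data were seen. *Magel2* no longer passed under 8 and *Kcnq1ot1* under 10 of the 13. The number of called genes was 93, with 169 from Agilent's processed signals and 141 from the deposited value table. No gene of the group passed for a sex difference of ratio or level under any alternative run. The sex difference of the ratios could not be fitted without an array, and a slide or scan block was not run with 1 slide and 1 scan. The probe of *Igfbp7* was near background, which limits its ratio.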
